A study of Homo sapiens with 6 samples.

Results

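To describe how Nitidine Chloride (NCD) acts on the genes that keep a cell's own DNA and RNA from setting off its antiviral sensors, 8 genes were followed by RNA sequencing in MDA-MB-231 cells, a line of human breast cancer that lacks the hormone receptors and HER2 amplification. The 8 genes were taken by symbol (TREX1, RNASEH2A, RNASEH2B, RNASEH2C, RNASEH1, SAMHD1, ADAR and DNASE2) and all were found among the 63241 gene identifiers of the files. Wild-type cells were treated for 24 h with 5 μM NCD, a plant alkaloid, or with 0.1% DMSO as the vehicle, with 3 libraries in each of the 2 groups. Free-text notes for NCD replicates 2 and 3 carry other cell line numbers, while their cell line field gives MDA-MB-231. The labels do not say that the libraries came from separate cultures, so p-values measure only the spread between these libraries, which may be technical.

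Cells make nucleic acids that resemble those of a virus: DNA leaking into the cytosol, RNA:DNA hybrids left by replication and transcription, and long double-stranded RNA from repeats. Sensors such as CGAS for DNA and IFIH1 for double-stranded RNA respond to them by switching on interferon genes. TREX1 degrades DNA in the cytosol, DNASE2 degrades DNA in lysosomes, the RNase H enzymes cut the RNA of RNA:DNA hybrids, SAMHD1 hydrolyses the deoxynucleotides from which DNA is built, and ADAR edits adenosine to inosine in double-stranded RNA. Inherited loss of several of them causes Aicardi-Goutières syndrome, an inflammatory disease with high interferon, and several of these genes are themselves induced by interferon.

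The libraries held between 18223594 and 19410833 counts with DMSO and between 18232169 and 21629653 with NCD. Levels are given as CPM, counts per 1000000 after scaling by edgeR's TMM method, and changes as the log2 fold change of NCD against DMSO. A gene was said to have risen or fallen at a Benjamini-Hochberg adjusted p below 0.05 in edgeR's quasi-likelihood test over the 15295 genes that passed the filter on low counts, and was called differentially expressed if the absolute log2 fold change was also above 1. The 5 markers of this line (VIM, CD44, EGFR, FN1 and AXL) summed to 5100 to 5304 CPM with DMSO and 3350 to 3604 CPM with NCD, and all 5 fell, 3 of them past the fold threshold. The 5 markers of hormone receptor or HER2 positive breast cancer summed to 42.0 to 44.7 CPM with DMSO and 67.1 to 71.9 CPM with NCD. Of these ESR1 and PGR had at most 7 counts in any library, ERBB2 rose by 0.71 and FOXA1 by 3.25 on the log2 scale, the latter from 0.172 to 1.68 CPM, and GATA3 did not pass the test (0.25, edgeR adjusted p = 0.073). Of the leukocyte markers PTPRC and CD3E had at most 1 count in any library, while the summed level of the list, 81.3 to 91.1 CPM with DMSO and 86.2 to 95.4 CPM with NCD, was nearly all CD68. The 3 endothelial markers summed to at most 1.39 CPM.

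Of the 8 genes, all passed the filter on low counts. DNASE2, TREX1, RNASEH2A, ADAR and SAMHD1 rose with NCD, RNASEH2B and RNASEH1 fell, and RNASEH2C did not pass the test. Of all tested genes 35.3% rose and 34.1% fell by the same rule. Past the fold threshold, 2 of the 8 were differentially expressed, DNASE2 and TREX1, both higher. Among all tested genes 31.0% were differentially expressed, 13.5% higher and 17.5% lower, or 2067 against 2669 genes. With library totals in place of TMM this split was 2793 higher and 2181 lower, as library totals moved the log2 fold changes up by a median of 0.20. No member was differentially expressed and lower by edgeR, DESeq2 or limma-voom. At an unadjusted p below 0.05 in edgeR 2 were lower, as were at least 34.1% of all tested genes. In 5 genes every NCD library lay above every DMSO library and in 2 every NCD library lay below, against 37.2% and 35.3% of all tested genes. The median log2 fold change of the 8 was 0.54, against 0.036 for all tested genes. RNA from whole cultures was measured, so a change in the share of cells that express a gene and a change of RNA per cell cannot be told apart.

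**Figure D1:**
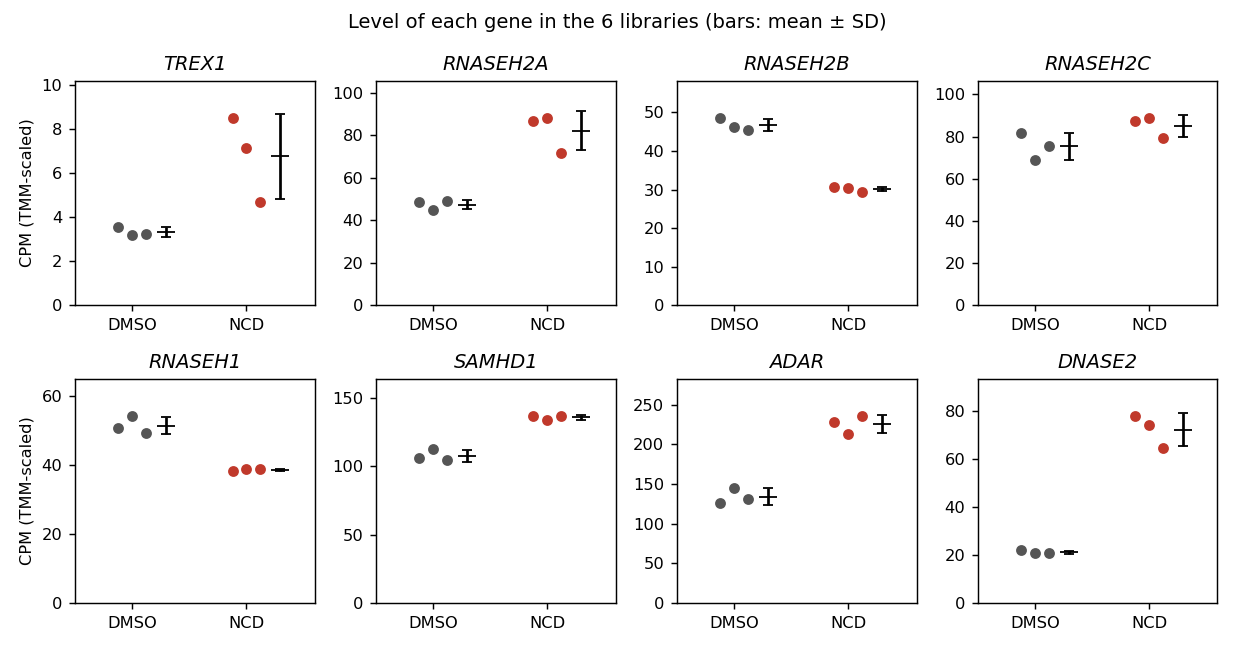
Level of each gene in CPM (y axis, TMM-scaled, from 0) in the 3 DMSO libraries (grey) and the 3 NCD libraries (red), with the mean ± SD in black. The groups overlap only for RNASEH2C, and the spread of TREX1 among NCD libraries, from 4.66 to 8.48 CPM, is the widest relative to its mean.

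DNASE2 and RNASEH2A stand close together on the short arm of chromosome 19, and both rose. RNASEH2B, on chromosome 13, encodes a partner subunit of RNASEH2A and fell. The bases just before the annotated start of each are shown because these genes carry the largest rise of the 8 and the opposite changes within RNase H2. The sequences are from RefSeq on GRCh38.p14, cover the 250 bases before the start and are written in the direction of transcription. They lie at chr19:12881450-12881699 (minus strand, DNASE2), chr19:12806334-12806583 (plus strand, RNASEH2A) and chr13:50909428-50909677 (plus strand, the first of the starts listed for RNASEH2B). Capitals mark matches on either strand to 3 motifs. The GC box was searched as GGGCGG. The second motif was the CCAAT box, searched by those letters. The E box was searched as CACGTG.
DNASE2: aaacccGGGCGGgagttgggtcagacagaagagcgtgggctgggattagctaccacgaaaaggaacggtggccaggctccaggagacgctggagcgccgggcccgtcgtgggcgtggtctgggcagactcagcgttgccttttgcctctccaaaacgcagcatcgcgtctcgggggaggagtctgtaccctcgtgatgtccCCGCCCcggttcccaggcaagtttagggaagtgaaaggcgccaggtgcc
RNASEH2A: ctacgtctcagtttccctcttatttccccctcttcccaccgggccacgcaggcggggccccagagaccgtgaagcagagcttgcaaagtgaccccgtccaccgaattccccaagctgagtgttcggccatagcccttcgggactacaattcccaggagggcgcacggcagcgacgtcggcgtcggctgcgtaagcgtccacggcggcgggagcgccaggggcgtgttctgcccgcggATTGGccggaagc
RNASEH2B: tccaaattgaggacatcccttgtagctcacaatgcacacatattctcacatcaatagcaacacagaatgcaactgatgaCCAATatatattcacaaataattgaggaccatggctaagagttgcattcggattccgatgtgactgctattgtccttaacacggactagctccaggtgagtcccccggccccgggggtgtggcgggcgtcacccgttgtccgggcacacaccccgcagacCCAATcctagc
DNASE2 held 2 GC boxes and no CCAAT box, RNASEH2A held 1 CCAAT box and no GC box, and this RNASEH2B window held 2 CCAAT boxes. The other window listed for RNASEH2B, not shown, held 1 GC box and 1 CCAAT box. Of all 35116 listed promoters, 42.6% held a GC box, 32.0% a CCAAT box and 6.34% an E box in the 250 bases before the start. The core of the interferon-stimulated response element (GAAA, any 2 bases, GAAA) and of the interferon-responsive GAS element (TTCNNNGAA) were searched on both strands as well. Neither was found in any of the 11 windows listed for the 8 genes, while 3.02% and 6.57% of all promoters held them. A missing match says only that these letters are not in these windows.

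DNASE2 (ENSG00000105612; chromosome 19, 12875211 to 12881468, minus strand, GENCODE release 29 on GRCh38), the acid endonuclease that digests DNA in lysosomes, showed the largest change of the 8. Its counts were 364, 365 and 378 for the vehicle and 1782, 1431 and 1386 after NCD, or 21.9, 20.7 and 20.7 CPM against 77.9, 74.0 and 64.6 CPM. The lowest NCD library stood far above the highest DMSO library. The mean of 21.1 ± 0.722 CPM (SD, n = 3) rose to 72.2 ± 6.81 CPM (SD, n = 3), and the log2 fold change was 1.77 (standard error 0.09, edgeR adjusted p = 2.64e-07), a 3.42-fold rise with a 95% interval of 2.98 to 3.93. The change lay at percentile 95.6 of all tested genes.

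TREX1 (ENSG00000213689; chromosome 3, 48465811 to 48467645, plus strand), the main DNA exonuclease of the cytosol, was the gene with the fewest counts. Its counts were 59.3, 56.1 and 58.5 for the vehicle and 194, 138 and 100.4 after NCD, or 3.56, 3.17 and 3.23 CPM against 8.48, 7.14 and 4.66 CPM. The groups did not overlap, but NCD replicate 3 lay nearer to the DMSO libraries than NCD replicate 1 did. The vehicle mean of 3.32 ± 0.207 CPM (SD, n = 3) compared with 6.76 ± 1.94 CPM (SD, n = 3) after treatment. Its log2 fold change was 1.03 (standard error 0.22, edgeR adjusted p = 0.00289), and its 95% interval, from 0.52 to 1.54, included the fold threshold. The fold threshold was no longer met without DMSO replicate 2 (0.99), DMSO replicate 3 (0.98), NCD replicate 1 (0.80) or NCD replicate 2 (0.99), with the adjusted p staying below 0.05 in each.

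In GENCODE release 29 all 1515 exonic bases of TREX1 lie within exons of ATRIP, a gene of the DNA damage response on the same strand, so the division of reads between them was an estimate by RSEM. ATRIP was assigned 217, 213 and 211 counts for the vehicle and 228, 205 and 204 after NCD, and its log2 fold change was -0.29 (standard error 0.10, edgeR adjusted p = 0.0319). TREX1 took 20.9% to 21.7% of the counts of the pair in the DMSO libraries and 33.0% to 46.1% in the NCD libraries. When the counts of both genes were summed before the fit, an alternative added after the data were seen, the pair summed to 276, 269 and 270 for the vehicle and 422, 343 and 304 after NCD. For the pair the log2 fold change was 0.11 (standard error 0.12, 95% interval -0.16 to 0.38, edgeR adjusted p = 0.425). At the locus as a whole the change did not pass the test. ATRIP was assigned most counts of the pair, so the sum cannot decide whether TREX1 rose. The rise of TREX1 and the fall of ATRIP both rest on how RSEM divided the reads between the overlapping genes, which was not tested.

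**Figure D2:**
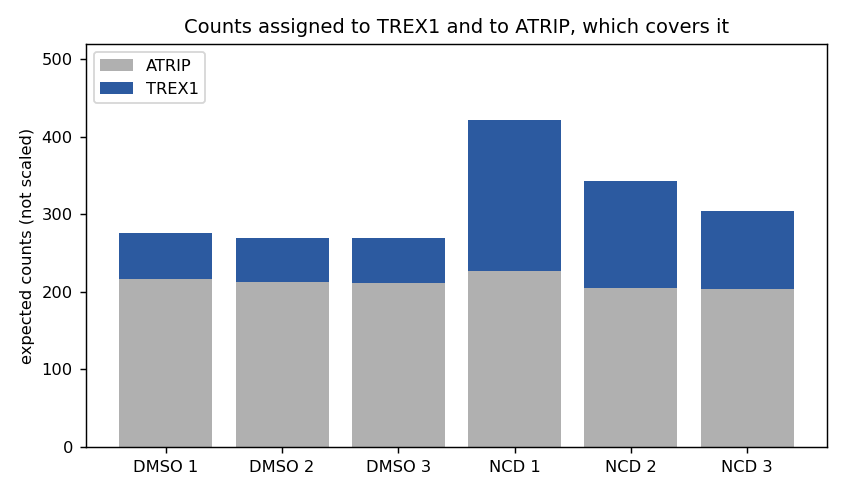
Expected counts (y axis, not scaled for depth) assigned to ATRIP (grey) and TREX1 (blue) in each of the 6 libraries (x axis). TREX1 takes 20.9% to 21.7% of the stacked bar with DMSO and 33.0% to 46.1% with NCD.

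RNase H2 is a complex of a catalytic subunit, RNASEH2A, and the scaffold subunits RNASEH2B and RNASEH2C, and it removes both RNA:DNA hybrids and single ribonucleotides built into DNA. The transcripts of the 3 subunits did not move together. RNASEH2A (ENSG00000104889; chromosome 19, 12806556 to 12815201, plus strand) had 48.5, 44.9 and 48.9 CPM with DMSO and 86.9, 88.1 and 71.7 CPM with NCD. Every NCD library lay above the DMSO libraries. The mean of 47.4 ± 2.22 CPM (SD, n = 3) rose to 82.2 ± 9.14 CPM (SD, n = 3), with a log2 fold change of 0.79 (standard error 0.09, edgeR adjusted p = 5.2e-05).

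RNASEH2B (ENSG00000136104; chromosome 13, 50909678 to 51024120, plus strand), which links the complex to the replication clamp, had 48.5, 46.3 and 45.4 CPM with DMSO and 30.5, 30.5 and 29.4 CPM with NCD. All NCD libraries lay below all DMSO libraries, and they differed little among themselves. The log2 fold change was -0.63 (standard error 0.07, edgeR adjusted p = 3.35e-05), which left 64.6% of the DMSO level. RNASEH2C (ENSG00000172922; chromosome 11, 65714005 to 65720947, minus strand) had 81.9, 68.9 and 75.3 CPM with DMSO and 87.4, 88.6 and 79.2 CPM with NCD, and the groups overlapped. Its log2 fold change was 0.18 (standard error 0.08, edgeR adjusted p = 0.0798), with a 95% interval of -0.0077 to 0.36.

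The call for RNASEH2C depended on the settings: the log2 fold change was 0.37 with library totals (edgeR adjusted p = 0.00126) and 0.21 without NCD replicate 3 (edgeR adjusted p = 0.0416). Of its exonic bases 28.2% overlap exons of KAT5, an acetyltransferase gene on the other strand, and whether the counting used strand is not given in the sources used here. KAT5 rose, with a log2 fold change of 0.34 (standard error 0.07, edgeR adjusted p = 0.00238), and RNASEH2C and KAT5 summed gave 0.25 (edgeR adjusted p = 0.0119). RNASEH2A shares exonic bases with THSD8, which had at most 5.03 counts, and RNASEH2B with RNASEH2B-AS1 and GUCY1B2, which had at most 13 and 2 counts. Summed with these, RNASEH2A gave 0.79 and RNASEH2B -0.64.

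The balance of the subunits was read within each library as the log2 ratio of counts, which does not depend on how libraries are scaled. The ratio of RNASEH2A to RNASEH2B was 0.0015, -0.045 and 0.11 for the vehicle and 1.51, 1.53 and 1.28 after NCD. With DMSO the counts of both genes were nearly equal, and with NCD the RNASEH2A counts were higher in every library. The difference between the groups was 1.42 on the log2 scale, a 2.68-fold shift. The 2 genes differ in length, at 8.65 kb for RNASEH2A and 114 kb for RNASEH2B. All tested genes in the same decile of gene span had median log2 fold changes of 0.41 for RNASEH2A and -0.93 for RNASEH2B. The part of gene span in the shift of this ratio was not tested. The ratio of RNASEH2A to RNASEH2C went from -0.67 ± 0.08 (SD, n = 3) to -0.055 ± 0.08 (SD, n = 3), and that of RNASEH2B to RNASEH2C from -0.69 ± 0.10 (SD, n = 3) to -1.50 ± 0.06 (SD, n = 3). Exact two-sided permutation tests over the libraries gave p = 0.1 for each of the 4 ratios tested, adjusted p = 0.1, the smallest p that 3 against 3 libraries allow.

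RNASEH1 (ENSG00000171865; chromosome 2, 3544793 to 3558616, minus strand) encodes the other RNase H, a single protein that works on RNA:DNA hybrids in nuclei and mitochondria. It had 50.7, 54.1 and 49.3 CPM with DMSO and 38.1, 38.8 and 38.7 CPM with NCD. The NCD libraries were nearly equal and all lay below the DMSO libraries. The log2 fold change was -0.41 (standard error 0.07, edgeR adjusted p = 0.000511), which left 75.0% of the DMSO level. The log2 ratio of RNASEH2A to RNASEH1 went from -0.11 ± 0.14 (SD, n = 3) to 1.09 ± 0.17 (SD, n = 3), the fourth of the ratios tested. RNASEH1-AS1, which overlaps 4.4% of its exonic bases on the other strand, also fell, with a log2 fold change of -0.61 (standard error 0.14, edgeR adjusted p = 0.0037), and both summed gave -0.46. The pseudogenes RNASEH1P1, RNASEH1P2 and RNASEH2CP1 had 0 counts in every library.

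**Figure D3:**
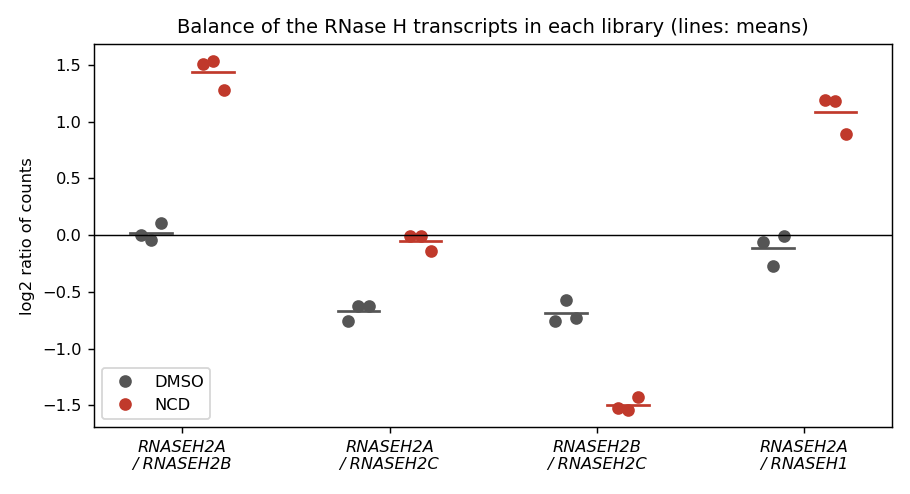
Log2 ratio of counts (y axis) for 4 pairs of RNase H genes (x axis), with 1 point per library (DMSO grey, NCD red) and lines at the group means. RNASEH2A to RNASEH2B moves from 0.021 to 1.44 and RNASEH2B to RNASEH2C from -0.69 to -1.50, with no overlap between the groups in any of the 4.

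ADAR (ENSG00000160710; chromosome 1, 154582057 to 154628013, minus strand) had the highest CPM of the 8 in both groups. It had 126, 146 and 131 CPM with DMSO and 228, 213 and 236 CPM with NCD, and the groups were far apart. The vehicle mean of 134 ± 10.3 CPM (SD, n = 3) rose to 226 ± 11.4 CPM (SD, n = 3). Its log2 fold change was 0.75 (standard error 0.07, edgeR adjusted p = 1.55e-05), a 1.68-fold rise with a 95% interval of 1.50 to 1.88. No other annotated gene overlaps ADAR. The gene has distant starts, which serve a long, interferon-inducible protein and a shorter, constitutive protein, and gene-level counts pool them, so these data do not say which transcript rose. The 250 bases before 2 of its 3 listed RefSeq starts are shown for that reason, at chr1:154627998-154628247 and chr1:154608798-154609047 (GRCh38.p14, minus strand), with the same capitals as above.
ADAR, upstream start: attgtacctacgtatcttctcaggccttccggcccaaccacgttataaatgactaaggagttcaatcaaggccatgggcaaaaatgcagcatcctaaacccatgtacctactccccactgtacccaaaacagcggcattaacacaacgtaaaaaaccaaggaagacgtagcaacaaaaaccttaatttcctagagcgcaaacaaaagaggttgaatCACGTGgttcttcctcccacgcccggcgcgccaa
ADAR, inner start: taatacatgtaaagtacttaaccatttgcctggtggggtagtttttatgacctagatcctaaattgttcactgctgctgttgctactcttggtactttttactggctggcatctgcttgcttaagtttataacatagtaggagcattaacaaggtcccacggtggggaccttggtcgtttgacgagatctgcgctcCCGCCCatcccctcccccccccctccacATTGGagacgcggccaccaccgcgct
The window of the upstream start held 1 E box, and that of the inner start held 1 GC box and 1 CCAAT box. The listed window that is not shown, at chr1:154627972-154628221, overlaps that of the upstream start. It held 1 E box and 2 CCAAT boxes, so the lack of a CCAAT box in the upstream window depends on the start used. The order of the windows does not pair them with the long and the shorter protein, and which start serves which was not tested.

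SAMHD1 (ENSG00000101347; chromosome 20, 36889773 to 36951901, minus strand) had 106, 113 and 105 CPM with DMSO and 137, 134 and 137 CPM with NCD. The groups did not overlap, and the rise was the smallest of those that passed the test. The log2 fold change was 0.33 (standard error 0.06, edgeR adjusted p = 0.000619), a 1.26-fold rise with a 95% interval of 1.15 to 1.38. TLDC2, on the other strand, shares 10.3% of the exonic bases of SAMHD1 and had at most 12.9 counts, and both summed gave the same log2 fold change of 0.33. For CPM, two-sided exact permutation tests of 3 against 3 libraries gave p = 0.1 for each of the 7 genes that passed in edgeR, the smallest p possible, and p = 0.2 for RNASEH2C.

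**Figure D4:**
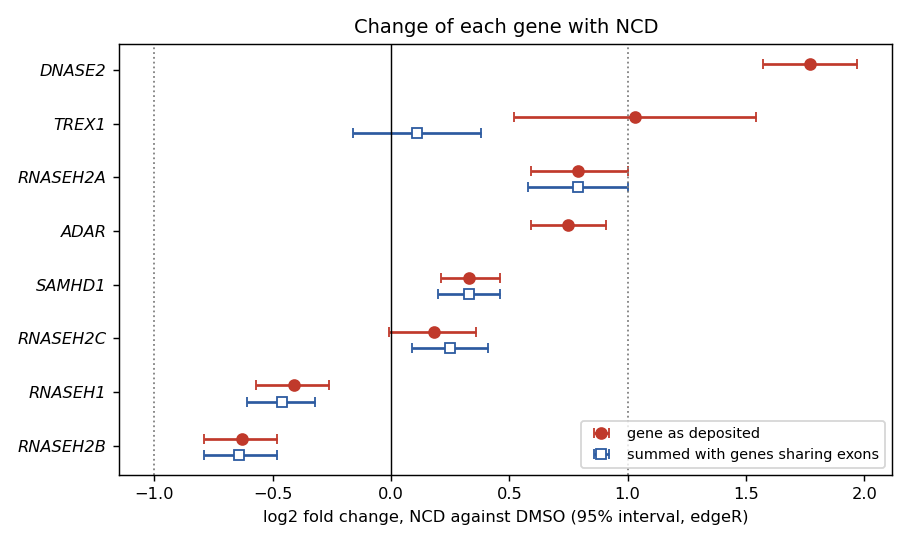
Log2 fold change of NCD against DMSO (x axis) with its 95% interval from edgeR for each gene (red), and after summing its counts with those of genes that share exonic bases (blue, open). TREX1 has a value of 1.03 alone and 0.11 when summed with ATRIP, which holds most counts of the pair. RNASEH2C has 0.18 alone and 0.25 summed, and the dotted lines mark the fold threshold.

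Levels between genes were compared as CPM per kb of merged exons, which is a level and not a change. With DMSO the order from the highest was RNASEH1 (17.9), RNASEH2C (14.8), ADAR (13.8), RNASEH2A (13.0), SAMHD1 (9.58), DNASE2 (8.83), TREX1 (2.19) and RNASEH2B (1.78). Neighbours from RNASEH2C to RNASEH2A overlapped in their libraries and the other neighbours did not. With NCD the highest was DNASE2 (30.2), followed by ADAR (23.3) and RNASEH2A (22.5), which overlapped, and RNASEH2B stayed last at 1.15 CPM per kb. The low place of RNASEH2B depends on the length used, since its merged exons span 26291 bases and its longest transcript 7282. Per kb of the longest transcript it had 6.41 CPM with DMSO, above TREX1 at 2.26, and 4.14 CPM with NCD, where it overlapped TREX1 at 4.60.

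In these libraries the change with NCD varied with gene span, so each gene is set beside all tested genes of the same decile of span. RNASEH2B, at 114 kb the longest of the 8, fell by 0.63 on the log2 scale, where the median of its decile was -0.93. SAMHD1 (62.1 kb) and ADAR (46.0 kb) had log2 fold changes of 0.33 and 0.75, where the medians of their deciles were -0.35 and -0.026. RNASEH1, at 13.8 kb, fell while the median of its decile was 0.43. DNASE2, TREX1 and RNASEH2A, all under 9 kb, lay above medians of 0.39, 0.24 and 0.41, and RNASEH2C lay below its median of 0.39. The part of gene span in the change of any of them was not tested.

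**Figure D5:**
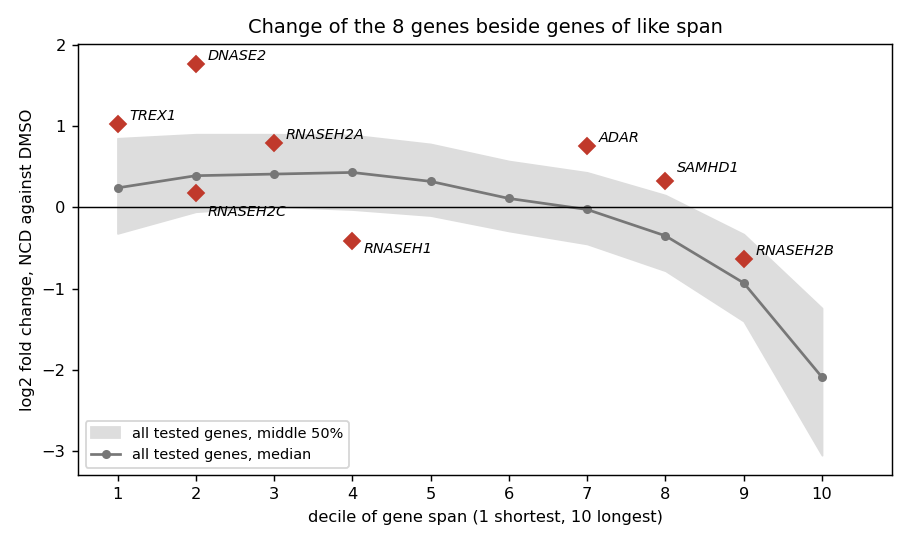
Log2 fold change of NCD against DMSO (y axis) of the 8 genes (red diamonds), placed by decile of gene span (x axis), with the median (grey line) and middle 50% (band) of all tested genes in each decile. RNASEH1 lies below the band of its decile, and DNASE2, TREX1, ADAR and SAMHD1 lie above theirs.

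Most of the sensors that read the nucleic acids these genes remove or edit were higher with NCD. Of 22 listed sensors and adaptors 18 could be tested, 13 rose and 3 fell, and 9 were differentially expressed, all higher. Their median log2 fold change was 0.98, against 0.036 for all tested genes. Of the latter 35.3% rose, 34.1% fell and 13.5% were differentially expressed and higher. STING1, the adaptor for CGAS, rose from a mean of 14.9 ± 0.58 CPM (SD, n = 3) to one of 55.9 ± 1.91 CPM (SD, n = 3), a log2 fold change of 1.91 (edgeR adjusted p = 6.94e-08). IFIH1, the sensor of unedited double-stranded RNA, rose by 1.83 on the log2 scale (edgeR adjusted p = 2.78e-06), and IRF7, OAS2 and OAS3 rose by 2.49, 1.66 and 1.09. CGAS itself, picked out after its values were seen, rose by 0.85 (edgeR adjusted p = 2.38e-06). The 3 that fell, also named after their values were seen, were MAVS (-0.39), RIGI (-0.43) and IKBKE (-0.54). None of the sensors was differentially expressed and lower by edgeR, DESeq2 or limma-voom. At an unadjusted p below 0.05 in edgeR these 3 were lower, as were at least 34.1% of all tested genes.

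Of 15 listed interferon-stimulated genes 14 were differentially expressed and higher, with a median log2 fold change of 2.35. The 5 with the smallest p were IFIT2 (4.07), IFIT1 (2.51), IFIT3 (2.84), OASL (4.69) and MX1 (2.35). Each of these was larger than the log2 fold change of any of the 8 nucleases and editors. Of 7 interferon genes none passed the filter on low counts. IFNB1, IFNA1, IFNE, IFNK and IFNL2 had 0 counts in every library, which allows up to 0.165 CPM in the shallowest library (3 counts, counting error only). When the filter was dropped edgeR called 1 of them differentially expressed and higher, as many as DESeq2. IFNL1 had 0 counts in every DMSO library and 6 to 10 in the NCD libraries, and IFNL3 had 0 with DMSO and 0 to 4 with NCD.

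Of 23 other nucleases and RNA editors 17 could be tested, 7 rose and 5 fell, and their median log2 fold change was 0.14. Of all tested genes 35.3% rose and 34.1% fell, with 13.5% differentially expressed and higher and 17.5% differentially expressed and lower. ISG20, an interferon-induced RNA exonuclease, rose from a mean of 4.95 ± 0.672 CPM (SD, n = 3) to one of 31.0 ± 4.22 CPM (SD, n = 3), a log2 fold change of 2.65 (edgeR adjusted p = 4.32e-07), and ENDOG, a mitochondrial nuclease, rose by 1.15 (edgeR adjusted p = 0.00159). The count of differentially expressed genes that rose here was 1 without DMSO replicate 2, and 3 without DMSO replicate 1, DMSO replicate 3 or NCD replicate 1 and with library totals. The differentially expressed genes that fell were ADARB1 (-1.66), the other active RNA editor of this family, and the RNA exonucleases XRN1 (-1.49) and XRN2 (-1.04), and their count was 2 without NCD replicate 2 and with library totals. ADARB1 and ADAR thus changed in opposite directions, from 34.6 to 11.0 CPM for ADARB1. DNASE2B, DNASE1L3 and ADARB2, relatives of the genes above, had 0 counts in every library, within the same limit.

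Of 11 factors that repair ribonucleotides in DNA or resolve R-loops, the RNA:DNA hybrids formed in transcription, 2 rose and 6 fell. Only AQR, a helicase, was differentially expressed, with a log2 fold change of -1.49 (edgeR adjusted p = 9.55e-07), and the count of such genes was 3 without NCD replicate 3 and 2 without DMSO replicate 1 or DMSO replicate 3. Of 12 enzymes of the deoxynucleotide pool, on which SAMHD1 acts, 3 rose and 5 fell. Of 15 proliferation genes 4 rose and 6 fell, with a median log2 fold change of -0.13. Beside these lists, 35.3% of all tested genes rose, 34.1% fell and 31.0% were differentially expressed, with a median log2 fold change of 0.036. Among the pool enzymes and the proliferation genes none was differentially expressed by edgeR or limma-voom with TMM scaling, or by DESeq2 with its own scaling. At an unadjusted p below 0.05 in edgeR, 8 of the pool enzymes and 11 of the proliferation genes passed. The 35.3% and 34.1% of all tested genes that rose and fell by the adjusted p also pass this cutoff. The full share at it is not given here. With library totals 1 pool enzyme and 1 proliferation gene were differentially expressed, and higher.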

How the data were processed

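RNA of MDA-MB-231 cells was sequenced on a NovaSeq X Plus system. Per the labels and the paper's methods, the authors aligned reads with HISAT2 to GRCh38 and estimated counts per Ensembl gene with RSEM; versions, annotation release and strand setting are not given in the sources used here. The deposited values are expected counts, not normalized, one file per library. Each file also held 25 lines of stray text that name no gene; these were left out. Of 63241 identifiers 62720 had a symbol and 58228 are in GENCODE release 29, whose coordinates are used here.

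Counts were rounded and fitted for all genes with edgeR 4.0.16 (filterByExpr, TMM, glmQLFit, glmQLFTest) in R 4.3.3. Standard errors were taken from the log2 fold change and its F value, with 95% intervals from the same t distribution. Overlapping genes were found by exonic bases. Permutation tests used scipy 1.17.1. Alternatives were RLE scaling, library totals, the filter dropped or set at 10 counts throughout, DESeq2 1.42.0, limma-voom (limma 3.58.1), a prior count of 2, a block for replicate number, and leaving out libraries in turn. The authors' DESeq2 results were not used.

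The 8 genes and the gene lists were chosen with earlier results of these data known, and the GC, CCAAT and E box motifs were added after seeing the data. Named from each list were the differentially expressed genes with the smallest p, at most 5. Promoter windows came from RefSeq for all 8 genes. Libraries of a group differed by more than sampling noise (chi-square per degree of freedom 2.05 or more).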

Additional observations from a re-analysis of the deposited data

How the results depend on the processing

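All 8 genes kept their direction under the 14 alternative settings, and 7 kept their side of the adjusted p. The count of differentially expressed members was 2, and fell to 1 (DNASE2) with limma-voom and with the replicate number as a block, where TREX1 had log2 fold changes of 0.98 and 0.99, and it ranged from 1 to 2 without each library. Across the settings other than leaving out a library, the log2 fold change of DNASE2 lay between 1.75 and 1.97, that of ADAR between 0.73 and 0.95, that of RNASEH2A between 0.77 and 0.99, that of SAMHD1 between 0.31 and 0.53, that of RNASEH2B between -0.65 and -0.43 and that of RNASEH1 between -0.44 and -0.22, with library totals at the upper end of each. RNASEH2C passed the adjusted p with library totals (0.37), without NCD replicate 3 (0.21) and summed with KAT5 (0.25), and TREX1 summed with ATRIP did not (0.11). The cause of these changes was not tested. Over all genes the count of differentially expressed genes was 4736 and ranged from 3683 with at least 10 counts in every library to 5545 without a filter.

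The libraries were not taken as paired by replicate number: for numbers 1, 2 and 3 the correlation between deviations was 0.216, -0.185 and 0.0226. With the replicate block 4723 genes were differentially expressed. The log2 ratio of RNASEH2A to RNASEH2B then differed by 1.42 and that of RNASEH2B to RNASEH2C by -0.81. These values equal the unblocked differences by construction, as each replicate number holds 1 library of each group. The exact paired permutation test gave p = 0.25 for both ratios. Without each library these differences ranged from 1.37 to 1.50 and from -0.84 to -0.75. TREX1, with 56.1 to 59.3 counts in the DMSO libraries, is the member whose precision depth limits most.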

Other observations

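RNASEH2A and DNASE2 start 74.9 kb apart on chromosome 19. Of 9 annotated genes in the stretch from one to the other 4 could be tested: HOOK2, which reaches over RNASEH2A on the other strand without sharing an exonic base, had a log2 fold change of 1.52 (edgeR adjusted p = 2.03e-05), RNASEH2A of 0.79, MAST1 of 0.22 (edgeR adjusted p = 0.302) and DNASE2 of 1.77. This stretch was looked at after the values of both genes were seen.

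Among the NCD libraries, replicate 3 held the lowest CPM for 5 of the 8 genes: TREX1, RNASEH2A, RNASEH2B, RNASEH2C and DNASE2. Replicates 1 and 2 were closer to each other (chi-square over genes, per degree of freedom, 2.05) than either was to replicate 3 (14.4 and 12.9).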
